A study of Mus musculus with 8 samples.

Results

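Immediate early genes are the genes that a cell transcribes within minutes of a stimulus such as a growth factor, a stress or tissue dissociation. The set described here holds 10 of them out of the 21950 genes of a bulk RNA-Seq count table, namely Fos, Fosb, Jun, Junb, Jund, Egr1, Ier2, Atf3, Zfp36 and Btg2. They were chosen by name with their counts in these same libraries, and the spread of those counts between pools, already known, so their levels and fold changes are given as a description and without a p-value. The number that passed the threshold of the fit over the whole table is given only beside the share or number of all genes that did. All 10 were found in the table by Entrez identifier, and the mean of all 10 reached 1 CPM (counts scaled to a common library total with TMM factors). Gene positions are those of RefSeq on GRCm38.p6.

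The libraries came from 8 pools, 4 for d6PGCLCs and 4 for E12.5 PGCs, prepared in independent experiments and sequenced as stranded poly(A) libraries. PGCs are the embryonic precursors of eggs and sperm, and PGCLCs are their counterparts made in culture. The d6PGCLCs were derived from a single female line, BVSC-iPSC, that carries the Blimp1-Venus and the Stella-ECFP reporter and was made from adult tail tip fibroblasts. They passed through an epiblast-like stage, were cultured with BMP4, SCF, LIF and EGF, and were sorted at day 8 of the culture, day 6 of PGCLC induction, as cells positive for both reporters. The E12.5 PGCs were pooled from gonads of inbred female C57BL/6J fetuses and sorted for SSEA1 together with integrin β3. Cell source, genetic background, culture, sort markers and developmental stage therefore changed together between the groups and cannot be told apart.

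The libraries held between 8054596 and 12024841 counted reads for d6PGCLCs and between 7991437 and 11166023 for E12.5 PGCs. Germ cell markers were present in both groups, with a summed level of 4156 to 4752 CPM across d6PGCLCs and 4814 to 5411 CPM across E12.5 PGCs over 12 genes. Of these, 5 were called higher and 5 lower in d6PGCLCs. The late germ cell genes Dazl and Ddx4 were at 37.7 and 35.5 CPM across d6PGCLCs, against 1262 and 760 CPM in E12.5 PGCs, and the pluripotency factor Pou5f1 was at 1632 against 980 CPM. 1 library did not match its label in full: E12.5 PGC replicate 4 held 99 counts over 7 Y-linked genes although it was labelled female, and the other 7 libraries held 0. Leaving it out moved the log2 fold changes of the 10 genes by 0.02 to 0.37. E12.5 PGC replicate 2 stood apart for these genes, and fold changes of the set that rest on it are given with and without it. In bulk samples, fewer cells that express a gene and less RNA of it per cell cannot be told apart.

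The products of these genes act at successive steps of the same response. Fos and Fosb proteins pair with Jun, Junb or Jund through leucine zippers to form AP-1, a dimer that binds DNA, and Atf3 is a related zipper protein that is induced by stress. Egr1 is a zinc finger transcription factor that is induced by serum response factor and its ternary complex partners downstream of ERK. Ier2 is a short-lived nuclear protein. Zfp36 (tristetraprolin) binds AU-rich elements of mRNAs and recruits the CCR4-NOT deadenylase to them, and Btg2 is an antiproliferative protein that stimulates the same deadenylase. Zfp36 thereby shortens the life of many rapidly induced mRNAs.

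The stretches directly before the annotated starts are shown for 4 genes, because Fos and Jun had lower means and Junb and Zfp36 higher means in d6PGCLCs, and because they hold short elements that such genes are known for. They are the 250 bases before the RefSeq start on GRCm38.p6, written 5′ to 3′ on the strand of the gene, from chr12:85473640-85473889 (plus strand), chr4:95052223-95052472, chr8:84978749-84978998 and chr7:28379229-28379478 (minus strand). Capitals mark matches to the cyclic AMP response element (CRE, TGACGTCA), its core TGACG, the related octamer TGACATCA, the AP-1 site TGANTCA, or the CArG box that serum response factor binds.
Fos: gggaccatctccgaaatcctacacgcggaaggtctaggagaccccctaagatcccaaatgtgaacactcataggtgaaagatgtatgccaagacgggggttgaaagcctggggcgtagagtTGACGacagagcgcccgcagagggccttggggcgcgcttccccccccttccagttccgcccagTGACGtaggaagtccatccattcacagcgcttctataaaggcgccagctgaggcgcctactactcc
Jun: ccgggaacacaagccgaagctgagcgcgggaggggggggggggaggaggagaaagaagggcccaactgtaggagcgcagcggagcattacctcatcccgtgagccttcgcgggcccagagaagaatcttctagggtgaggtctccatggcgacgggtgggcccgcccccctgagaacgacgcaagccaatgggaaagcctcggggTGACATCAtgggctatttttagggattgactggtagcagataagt
Junb: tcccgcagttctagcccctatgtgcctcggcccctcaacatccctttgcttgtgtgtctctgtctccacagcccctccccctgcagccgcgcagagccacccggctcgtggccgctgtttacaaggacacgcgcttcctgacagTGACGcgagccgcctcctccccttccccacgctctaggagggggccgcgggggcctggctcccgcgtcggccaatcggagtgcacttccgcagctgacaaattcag
Zfp36: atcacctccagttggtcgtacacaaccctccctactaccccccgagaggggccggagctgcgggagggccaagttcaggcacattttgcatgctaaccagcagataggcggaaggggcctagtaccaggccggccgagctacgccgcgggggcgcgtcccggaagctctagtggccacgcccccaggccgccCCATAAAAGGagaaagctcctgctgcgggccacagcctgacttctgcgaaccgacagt

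Promoters of 300 bases (250 before and 50 after the start) were held for 8 of the 10 genes, all but Egr1 and Ier2, and each motif was sought on both strands and set beside its share among 32851 promoters of the same length. Elements more than 250 bases before a start lay outside these windows, so a gene without a match may still have the element further upstream. The CArG box occurred in Zfp36, as CCATAAAAGG between 58 and 49 bases before the start, and in 1.63% of all promoters. The CRE occurred in Btg2, between 166 and 159 bases before the start, and in 1.79% of all promoters. The octamer TGACATCA occurred in Jun, between 45 and 38 bases before the start, and in 3.62% of all promoters. The core TGACG, which is also part of the CRE, occurred in Atf3, Btg2, Fos, Fosb and Junb, 5 of the 8, and in 20.8% of all promoters. The Egr motif GCGNGGGCG occurred in Btg2, Fosb and Zfp36 and in 5.55% of all promoters. TATAAA occurred in Fos and Junb and in 13.6% of all. In Fos it lay between 33 and 28 bases before the start, but in Junb it covered bases 1 to 6 from the annotated start onward. TGANTCA was in none of the 8 windows and in 7.81% of all promoters, and the heat shock element, an array of inverted GAA units, was in none of the 8 and in 0.603% of all. For Jund the window lies at a RefSeq start (position 70697739) upstream of the GENCODE vM21 start (70698949), so that it does not hold the sequence next to the GENCODE start. The genes shown were chosen with their direction of change known, and the part of these motifs in their levels was not tested.

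d6PGCLCs and E12.5 PGCs were then compared to ask how the immediate early genes differ between the cultured cells and the fetal cells, and how they vary between pools. The set did not move as a block. Junb and Zfp36 were higher in d6PGCLCs, Jun, Atf3, Egr1 and Fos had lower means, and Fosb, Jund, Ier2 and Btg2 differed by less than 0.25 on the log2 scale. By the edgeR quasi-likelihood fit over the whole table, 2 of the 10 passed an adjusted p of at most 0.05 as higher (all genes: 16.1%). As lower, 4 passed (all genes: 15.4%), and 4 did not pass. Of the genes whose mean reached 1 CPM, as it did for all 10, 53.6% passed in either direction. Without E12.5 PGC replicate 2, 4 passed as higher and 3 as lower. Of all 21950 genes, 3397 passed as higher and 3155 as lower in that fit. With all libraries, Jun and Atf3 were also lower by at least 2 on the log2 scale, as were 3.37% of all genes. Over all genes 3.24% were higher by as much, which makes 6.62% in either direction. Nothing is read from these counts, since the genes were chosen with this contrast known. The median log2 fold change of the set was -0.20, and it was 0.01 over the 11487 genes whose mean reached 1 CPM.

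**Figure D1:**
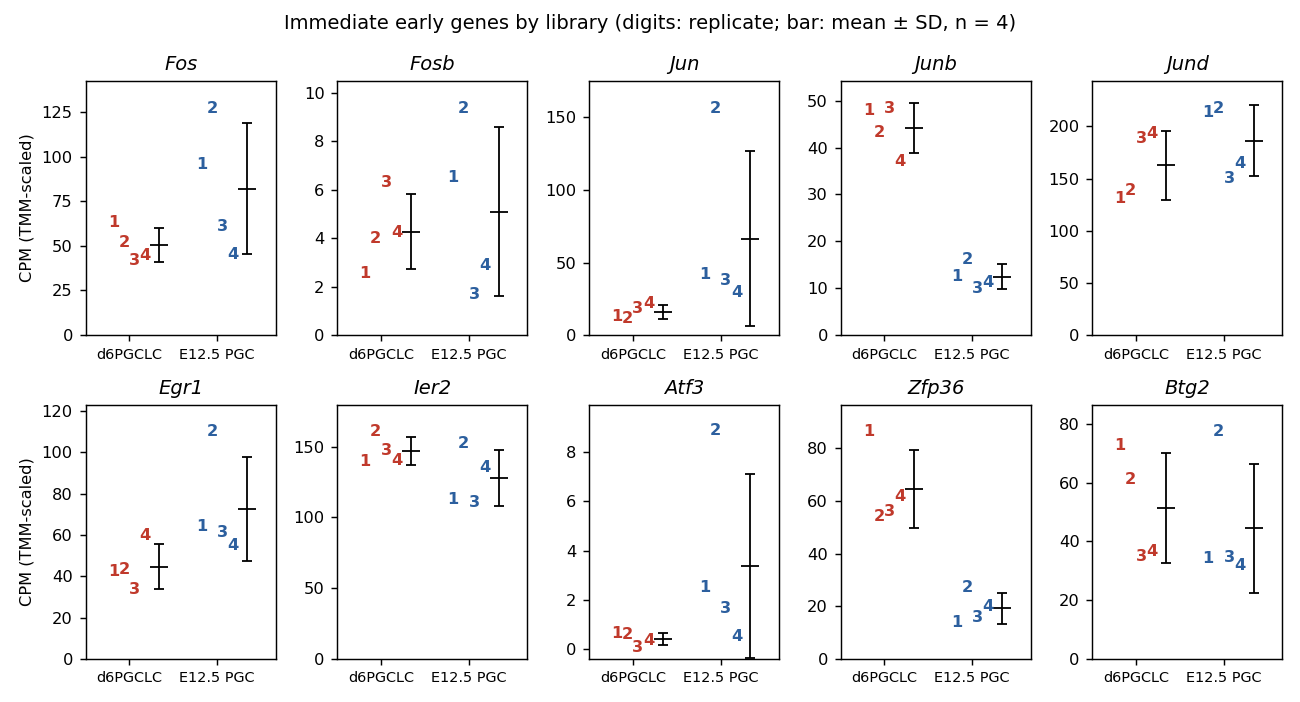
Level of each immediate early gene in CPM (vertical axes, a scale per gene) in d6PGCLC and E12.5 PGC libraries, with digits for the replicate and bars for the mean ± SD of 4 libraries. The groups are separate for Junb, Zfp36 and Jun, and E12.5 PGC replicate 2 is the highest E12.5 PGC library in all 10 panels.

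Among the Fos subunits, Fos (Entrez 14281, chr12:85473890-85477274) had 63.3, 52.0, 42.0 and 44.6 CPM in d6PGCLC replicates 1 to 4 and 95.7, 127.0, 60.7 and 44.9 CPM in E12.5 PGC replicates 1 to 4. The groups overlapped, because E12.5 PGC replicates 3 and 4 lay within the d6PGCLC range. The means were 50.5 ± 9.55 and 82.1 ± 36.7 CPM (SD, n = 4), and the log2 fold change of d6PGCLC over E12.5 PGC was -0.70 (SE 0.22). Without E12.5 PGC replicate 2 it was -0.40 (SE 0.19), and Fos then no longer passed the threshold. Fosb (chr7:19302696-19310118) was far scarcer, with 2.55, 3.97, 6.31 and 4.24 CPM across d6PGCLCs and 6.49, 9.37, 1.66 and 2.89 CPM across E12.5 PGCs. The E12.5 PGC values lay on both sides of the d6PGCLC values. Its log2 fold change of -0.21 (SE 0.38) turned to 0.28 (SE 0.38) without E12.5 PGC replicate 2.

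The Jun subunits, which can pair with Fos proteins and with each other, split in direction. Jun (Entrez 16476, chr4:95049036-95052222, a single exon) had 12.6, 11.5, 18.1 and 21.8 CPM across d6PGCLCs and 41.9, 156.3, 37.6 and 29.3 CPM across E12.5 PGCs. Every d6PGCLC library lay below every E12.5 PGC library. The log2 fold change was -2.05 (SE 0.37), and it was -1.17 (SE 0.20) without E12.5 PGC replicate 2, which held 3.73 times the next highest value. Junb (Entrez 16477, chr8:84976909-84978748) was the reverse, with 47.9, 43.2, 48.4 and 37.0 CPM across d6PGCLCs and 12.48, 16.2, 9.96 and 11.2 CPM across E12.5 PGCs. The lowest d6PGCLC library held more Junb than the highest E12.5 PGC library. Its log2 fold change of 1.83 (SE 0.16) was 1.98 without E12.5 PGC replicate 2. Jund (chr8:70697739-70700616), which many cells keep at a steady level, had 130.4, 138.2, 187.9 and 193.5 CPM across d6PGCLCs and 213.5, 217.3, 149.9 and 164.6 CPM across E12.5 PGCs. These ranges overlapped widely, and the log2 fold change of -0.20 (SE 0.13) was -0.11 (SE 0.14) without E12.5 PGC replicate 2 and -0.10 without d6PGCLC replicate 1.

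The zipper protein Atf3 (chr1:191170296-191183333) was close to the limit of detection in d6PGCLCs, with 5, 6, 1 and 3 counts, against 20, 84, 18 and 6 counts in E12.5 PGCs. In CPM these were 0.638, 0.611, 0.083 and 0.364 against 2.495, 8.84, 1.66 and 0.542, so that E12.5 PGC replicate 4 overlapped with d6PGCLCs. Summed over the libraries of a group, 15 of 38380304 reads stood against 128 of 38998916, a ratio of E12.5 PGC to d6PGCLC of 8.40 with an exact 95% interval of 4.91 to 15.4 that covers counting error alone. Without E12.5 PGC replicate 2 this ratio was 3.76, with an interval of 2.05 to 7.27. The fitted log2 fold change was -3.02 (SE 0.76), and -1.88 (SE 0.63) without E12.5 PGC replicate 2.

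Egr1 (chr18:34861207-34864956) had 42.1, 43.3, 33.4 and 59.5 CPM across d6PGCLCs and 64.1, 109.9, 61.3 and 54.8 CPM across E12.5 PGCs. The overlap came from d6PGCLC replicate 4 and E12.5 PGC replicate 4, and the log2 fold change was -0.71 (SE 0.18), or -0.43 (SE 0.15) without E12.5 PGC replicate 2. Ier2 (chr8:84661331-84662852, a single exon) was the steadiest of the set, with 139.8, 160.3, 147.0 and 140.4 CPM across d6PGCLCs and 112.9, 152.2, 110.6 and 135.5 CPM across E12.5 PGCs. The ranges overlapped through E12.5 PGC replicate 2, and the log2 fold change was 0.20 (SE 0.11), or 0.30 (SE 0.10) without that library, when Ier2 passed the threshold.

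The mRNA decay factors Zfp36 and Btg2 were both well counted but behaved differently. Zfp36 (Entrez 22695, chr7:28376784-28379228) had 86.3, 54.2, 56.1 and 61.6 CPM across d6PGCLCs and 13.7, 27.1, 15.7 and 20.0 CPM across E12.5 PGCs. The groups did not overlap, and the log2 fold change of 1.75 (SE 0.18) was 1.96 without E12.5 PGC replicate 2. Btg2 (chr1:134074865-134079155) had 72.9, 61.3, 34.8 and 36.5 CPM across d6PGCLCs and 34.3, 77.3, 34.6 and 31.7 CPM across E12.5 PGCs. In d6PGCLCs the values fell into a higher pair, replicates 1 and 2, and a lower pair, and in E12.5 PGCs replicate 2 lay apart from 3 libraries near 33.5 CPM. The log2 fold change of Btg2 was 0.21 (SE 0.25). It was 0.62 (SE 0.20) without E12.5 PGC replicate 2, when Btg2 passed the threshold, and -0.01 without d6PGCLC replicate 1.

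The groups did not overlap for Junb and Zfp36 (higher in d6PGCLCs) and for Jun (lower), and they overlapped for the other 7. Of all genes whose mean reached 1 CPM, 51.1% were separate, 27.0% with d6PGCLC higher and 24.1% with d6PGCLC lower. Antisense genes of the GENCODE vM21 annotation overlap the RefSeq spans of Jun (Junos), Jund (Gm11175) and Zfp36 (Gm44710). Whether the counting used the strand is not stated, so reads from these partners cannot be told apart from those of the 3 genes. The longer GENCODE spans of Junb and Atf3 also overlap genes on the other strand, Prdx2 (protein-coding) and Gm24748, outside the RefSeq spans. Whether the counted isoforms reached these is not known.

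**Figure D2:**
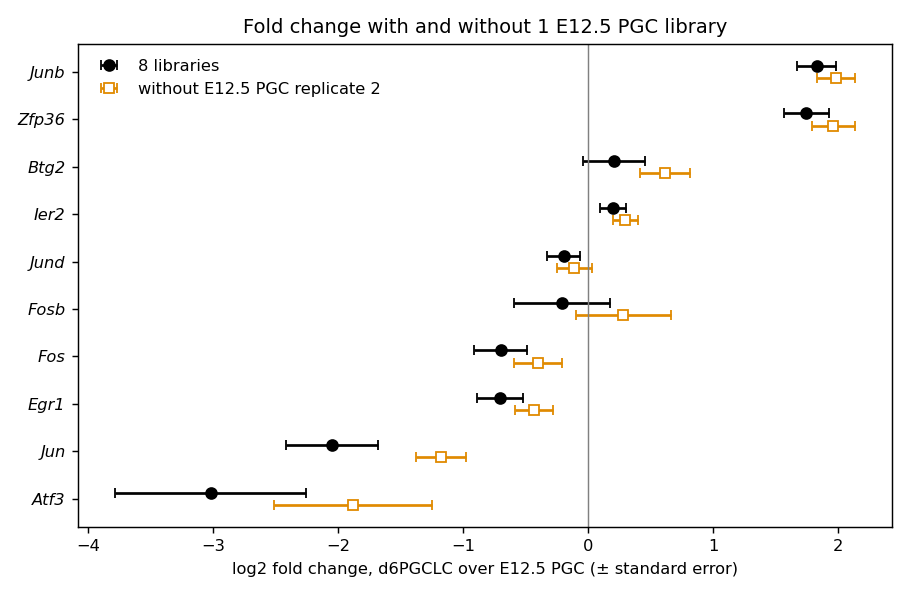
Log2 fold change of d6PGCLC over E12.5 PGC (horizontal axis) with its standard error, from all 8 libraries (filled circles) and without E12.5 PGC replicate 2 (open squares). Without that library Jun moves from -2.05 to -1.17 and Atf3 from -3.02 to -1.88, while Junb moves from 1.83 to 1.98 and Zfp36 from 1.75 to 1.96.

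The spread between replicate pools was not even across the libraries. In all 10 genes the highest E12.5 PGC value was that of replicate 2, whereas this library was the highest for 27.9% of all genes that reached a mean of 1 CPM. Its level was 1.86 times the mean of the other E12.5 PGC libraries in the median gene of the set, and 0.990 times in the median of the genes whose mean reached 1 CPM. The ratio was 5.65 for Atf3, 4.31 for Jun, 2.55 for Fosb, 2.31 for Btg2, 1.89 for Fos, 1.83 for Egr1, 1.65 for Zfp36, 1.45 for Junb, 1.27 for Ier2 and 1.23 for Jund. Ier2 and Jund, the most abundant of the set in RPKM, had the smallest ratios. The ratio did not follow abundance throughout. Zfp36 and Junb, at ranks 7 and 8 in E12.5 PGCs, had smaller ratios than Fos and Egr1, at ranks 3 and 4. Jun, Atf3, Btg2 and Egr1 exceeded the next E12.5 PGC library by at least 1.5 times, as did 2.08% of all genes that reached a mean of 1 CPM. This behaviour was known from earlier results of the same libraries and is no test.

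No d6PGCLC library had such a place. The shares and spreads of all genes that follow are those of the 11487 genes whose mean reached 1 CPM. Replicate 1 was the highest for 4 of the 10 genes (all genes: 33.0%), replicate 4 for 3 (20.0%), replicate 3 for 2 (21.7%) and replicate 2 for 1 (25.2%). The d6PGCLC pools also moved in opposite ways for different genes: replicate 1 held the most Fos, Zfp36, Btg2 and Atf3 of its group, and the least Fosb, Jund and Ier2. The median SD of log2(CPM + 0.5) between pools was 0.32 for the set and 0.21 for all genes in d6PGCLCs, and 0.52 for the set and 0.16 for all genes in E12.5 PGCs. Without E12.5 PGC replicate 2 the E12.5 PGC values were 0.26 for the set and 0.13 for all genes. In E12.5 PGCs 7 of the 10 genes exceeded the 90th percentile of the SD over all genes, and in d6PGCLCs 1 did, Btg2, with an SD of 0.53.

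**Figure D3:**
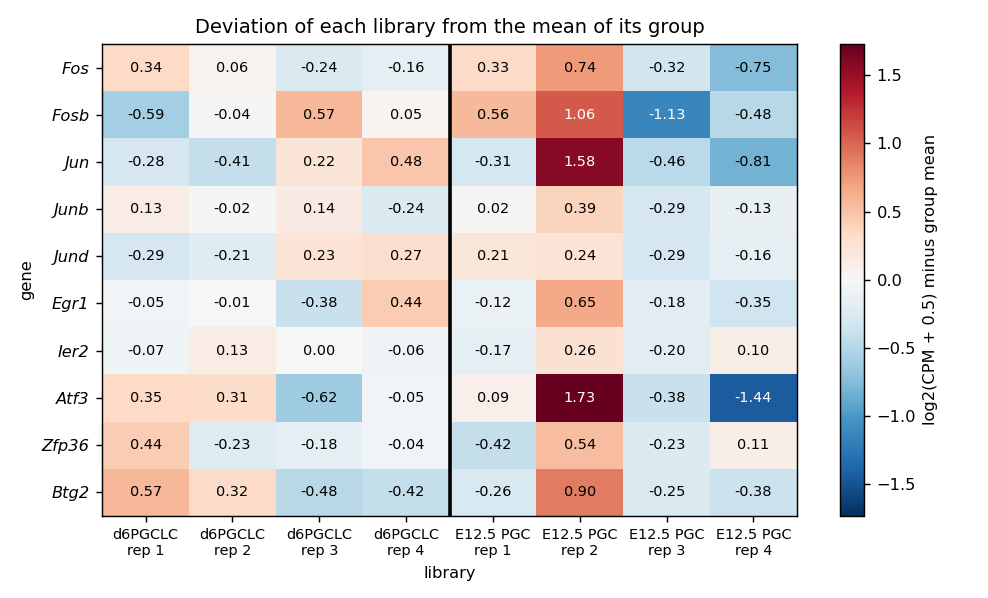
Deviation of log2(CPM + 0.5) from the mean of its group for each gene (rows) in each library (columns), with red for above and blue for below the mean. The column of E12.5 PGC replicate 2 is positive in every row, from 0.24 for Jund to 1.73 for Atf3, and no d6PGCLC column is positive throughout.

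Heat shock genes, many of which cells induce on protein damage, were set beside these values. Of 9 in the table, 7 were highest in E12.5 PGC replicate 2 among E12.5 PGCs, Bag3 and Hspe1 by a small margin (79.2 against at most 77.5 CPM and 325 against at most 313 CPM). Hsp90aa1 was lowest there, at 2058 CPM against 2266 to 2340 CPM, and Hspa8 was at 2177 CPM against 1847 to 2308 CPM. Hspa1a had 20.3, 144.4, 16.0 and 4.42 CPM in E12.5 PGC replicates 1 to 4 and at most 0.747 CPM in d6PGCLCs, and Hspa1b, a near-identical copy with which it loses shared reads, had 23.2, 181.1, 21.8 and 6.41 CPM against at most 1.79 CPM. All 9 passed an adjusted p of at most 0.05 between the groups (edgeR quasi-likelihood, over all genes), as did 53.6% of the genes whose mean reached 1 CPM. Of the 9, 7 were lower in d6PGCLCs, among them Dnajb1 at a log2 fold change of -1.29 (adjusted p = 4.41e-06), and 2 higher, Hspb1 at 3.01 and Bag3 at 0.82. The part of heat shock in the level of the immediate early genes was not tested.

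Markers of other cells were summed in the same libraries. The summed level of 11 gonadal somatic markers was 7.47 CPM in E12.5 PGC replicate 2 and at most 6.86 CPM in the remaining E12.5 PGC libraries, and it was 3.90 to 7.88 CPM in d6PGCLCs. Most of the d6PGCLC sum was Pdgfrb, at 3.40 to 6.55 CPM, which was the 1 marker called higher there, whereas 4 were called lower by at least 2 on the log2 scale, among them Gata4 at -2.96. For 6 endothelial markers it was 57.4 CPM in replicate 2, 35.7 to 44.2 CPM in the remaining E12.5 PGC libraries and 68.7 to 91.4 CPM in d6PGCLCs, and all 6 were highest in replicate 2 among E12.5 PGCs. The higher d6PGCLC sum came from Egfl7, at a mean of 43.6 against 10.6 CPM, and Cdh5, at 11.0 against 4.18 CPM, the 2 markers that were called, and the median log2 fold change over the 6 was -0.01. For 6 blood and macrophage markers it was 4.21 CPM in replicate 2, at most 2.08 CPM in the remaining E12.5 PGC libraries and 12.01 to 17.4 CPM in d6PGCLCs, mostly from Cd68. Csf1r, a receptor of macrophages, had 24, 20, 13 and 12 counts across d6PGCLCs and 0 in every E12.5 PGC library, and Hbb-bs, a globin, had 4 counts in E12.5 PGC replicate 2 and 1 in replicate 1. Adgre1, which defines macrophages, had no count in any library, and Ptprc, which defines leukocytes, had none in any E12.5 PGC library. For 7 epiblast and mesoderm markers the sum was 14.1 CPM in replicate 2, 8.02 to 11.1 CPM in the remaining E12.5 PGC libraries and 5.09 to 6.64 CPM in d6PGCLCs. Of these 7, 2 were highest in replicate 2 among E12.5 PGCs, as were 4 of the 11 gonadal somatic and 2 of the 6 blood markers. The part of such cells in the values of the immediate early genes was not tested.

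By the rule of likeness, the 5 genes whose pattern over the 8 libraries was nearest to the median pattern of the set were Btg1, Kctd7, Nptx2, Dnajb1 and Zfp367. Likeness was the root mean square difference of the within-group deviations, which was 0.078 for Btg1 and 0.138 for Zfp367 and had a median of 0.344 over 9227 genes whose mean reached 50 counts. With a pseudocount of 2 in place of 0.5, Zfp367 was at rank 6 and the other 4 were still among the nearest 5. Btg1, the close relative of Btg2, had 79.2, 123.9, 69.3 and 58.5 CPM in E12.5 PGCs and 75.7, 63.1, 61.2 and 64.1 CPM in d6PGCLCs. Dnajb1, a heat shock cochaperone, had 266.2, 572.7, 286.6 and 275.1 CPM in E12.5 PGCs and 138.6 to 159.5 CPM in 3 d6PGCLC libraries, with 136.1 CPM in replicate 1.

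Levels of different genes were compared as RPKM, counts per kilobase of the deposited exonic length, scaled to the library total as for CPM. In d6PGCLCs the order was Ier2 (94.0 ± 6.12 RPKM, SD, n = 4), Jund (55.7 ± 11.2), Zfp36 (35.0 ± 8.04), Junb (23.5 ± 2.82), Fos (22.4 ± 4.24), Btg2 (16.2 ± 5.93), Egr1 (14.1 ± 3.45), Jun (4.96 ± 1.49), Fosb (2.46 ± 0.892) and Atf3 (0.205 ± 0.125). Ier2, Zfp36, Egr1 and Fosb were each above the next gene in the order without overlap, and the neighbours Jund and Zfp36, Junb and Fos, Fos and Btg2, Btg2 and Egr1, and Jun and Fosb overlapped. In E12.5 PGCs the order was Ier2 (81.8 ± 12.7 RPKM), Jund (63.8 ± 11.7), Fos (36.4 ± 16.3), Egr1 (23.0 ± 7.99), Jun (20.5 ± 18.7), Btg2 (14.1 ± 6.94), Zfp36 (10.4 ± 3.23), Junb (6.63 ± 1.44), Fosb (2.94 ± 2.02) and Atf3 (1.64 ± 1.80), and every pair of neighbours overlapped. Without E12.5 PGC replicate 2, an alternative chosen after seeing the data, the order was the same, Jun was at 11.2 ± 1.98 RPKM (SD, n = 3), Btg2 at 10.6 ± 0.506 and Atf3 at 0.758 ± 0.475. Ier2 and Jund led and Fosb and Atf3 closed the order in both groups, while Zfp36 and Junb stood at ranks 3 and 4 in d6PGCLCs and at ranks 7 and 8 in E12.5 PGCs. The deposited length of Jund was 2918 bases, whereas its single GENCODE vM21 exon (70698949-70700616) is shorter. A shorter length would raise its RPKM, so its order and overlap with Ier2 and with the next genes rest on the deposited length.

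Within the AP-1 transcripts, the parts of Jun and Junb were separate between the groups, and the largest part, that of Jund, overlapped. Of the summed RPKM of Fos, Fosb, Jun, Junb and Jund, Jund took 50.8% ± 6.58 in d6PGCLCs and 51.3% ± 9.24 in E12.5 PGCs (SD, n = 4). These shares rest on the deposited lengths, and by counts Jund took 58.2% in d6PGCLCs and 55.4% in E12.5 PGCs. Junb took 24.6, 23.1, 21.8 and 17.1% in d6PGCLC replicates 1 to 4 and 4.78, 4.46, 5.51 and 6.40% in E12.5 PGC replicates 1 to 4. Jun took 3.78, 3.59, 4.75 and 5.88% in d6PGCLCs and 9.35, 25.1, 12.1 and 9.77% in E12.5 PGCs. The shares of Junb and of Jun did not overlap between the groups, also with the 25.1% of E12.5 PGC replicate 2 set aside, when Jun took 10.4% ± 1.49 (n = 3) and Jund 55.6% ± 4.41. Fos took 20.8% ± 5.28 and 27.3% ± 4.05, and Fosb 2.23% ± 0.682 and 2.07% ± 0.845, with overlap for both. The sum itself was 109 ± 8.95 RPKM in d6PGCLCs and 130 ± 46.9 RPKM in E12.5 PGCs, or 109 ± 25.7 RPKM (n = 3) without replicate 2.

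**Figure D4:**
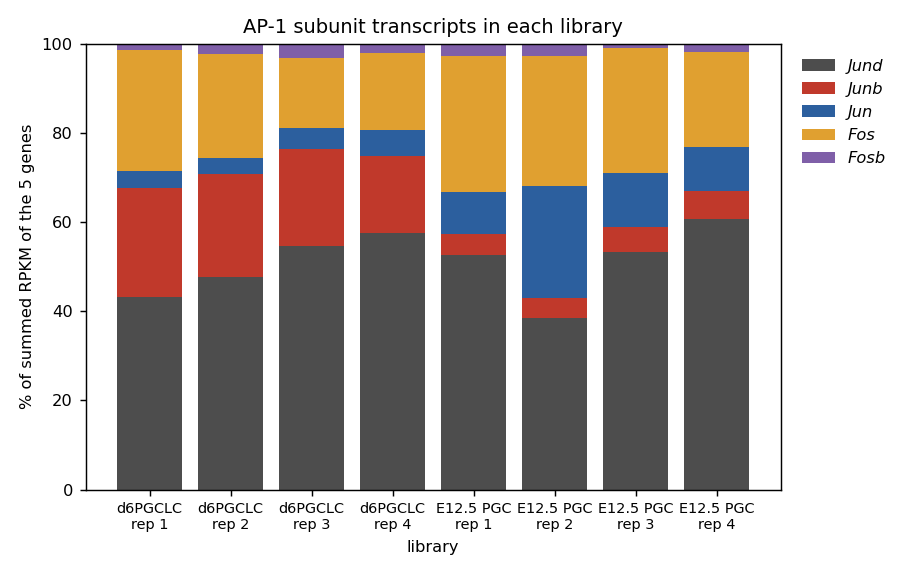
Share of each AP-1 subunit gene in the summed RPKM of the 5 genes (vertical axis, percent) in each library (horizontal axis). Junb takes 17.1 to 24.6% in d6PGCLCs and 4.46 to 6.40% in E12.5 PGCs, and the share of Jun is greatest in E12.5 PGC replicate 2, at 25.1%.

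Ratios between genes within a library do not depend on how the library was scaled. Junb exceeded Jun in every d6PGCLC library, at 6.50, 6.44, 4.59 and 2.91 to 1 in RPKM, and Jun exceeded Junb in every E12.5 PGC library, where the ratio of Junb to Jun was 0.511, 0.178, 0.454 and 0.655. Fos stood at 0.724 to 1.10 times Junb in d6PGCLCs and at 3.34 to 6.54 times Junb in E12.5 PGCs. Zfp36 stood at 1.52 to 2.89 times Btg2 in d6PGCLCs and at 0.602 to 1.08 times Btg2 in E12.5 PGCs. Each of these 3 ratios was separate between the groups. The ratio of Fos to Jun overlapped, at 2.93 to 7.17 in d6PGCLCs and 1.16 to 3.27 in E12.5 PGCs. The ratio of Fos to Fosb did too, at 5.12 to 19.1 in d6PGCLCs and 10.4 to 28.1 in E12.5 PGCs. As the genes were chosen with their levels known, all of these are descriptions.

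The genes around the set were taken from 8 lists of partners, relatives, regulators and other rapidly induced genes, which were written with earlier results of these libraries known. Of their 108 genes in the table, 30 rose and 34 fell in d6PGCLCs and 44 did not pass an adjusted p of at most 0.05 (edgeR quasi-likelihood, over all genes). That is 59.3% called, against 31.5% of all genes. Where the mean reached 1 CPM, 62.5% of 96 list genes and 53.6% of 11487 genes were called. The median log2 fold change of these 96 genes was -0.10, and E12.5 PGC replicate 2 was the highest E12.5 PGC library in 37 of them (all genes whose mean reached 1 CPM: 27.9%). With scarcer genes included, it was the highest in 13 of 17 other rapidly induced genes, 9 of 13 other zipper partners and 8 of 13 other immediate early transcription factors, and in 0 to 4 genes of each of the remaining 5 lists.

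Of 13 other zipper partners of AP-1, 5 rose, 1 fell and 7 did not pass. Maff, a small Maf protein, rose from 8.86 ± 2.70 to 35.6 ± 7.38 CPM (SD, n = 4), a log2 fold change of 2.01 (adjusted p = 4.99e-08). Jdp2, a Jun dimerization partner, rose by 1.55 (adjusted p = 2.40e-05) and Batf by 1.65 (adjusted p = 0.0062), both with group means below 10 CPM. Fosl2 was higher by 0.91 (adjusted p = 0.033), but its call was lost without any of E12.5 PGC replicates 3 and 4 (0.69 and 0.70) and d6PGCLC replicates 3 and 4 (0.81 and 0.83). The fall was that of Batf3, under 1 CPM in mean. Among 13 other immediate early transcription factors, 4 rose, 5 fell and 4 did not pass. Nr4a1, an orphan nuclear receptor, rose from 27.7 ± 5.52 to 84.2 ± 8.49 CPM (log2 1.60, adjusted p = 4.20e-09), Ier5 rose by 0.85 (adjusted p = 0.00031) and Klf2 by 0.70 (adjusted p = 7.29e-05). Egr2, the relative of Egr1, had 8.42 ± 3.04 CPM across E12.5 PGCs and 0.730 ± 0.214 CPM across d6PGCLCs and fell by 3.53 on the log2 scale (adjusted p = 2.29e-08), and Klf6 fell by 0.73 (adjusted p = 0.00032). Csrnp1 was higher by 0.30, and its call was lost without d6PGCLC replicates 3 (0.23) or 4 (0.23) or E12.5 PGC replicates 1 (0.29) or 3 (0.28), and also with normalization by library size alone (0.27) or by upper quartile (0.27). Egr3, Egr4 and Nr4a2 were lower as well, with group means of at most 1.07 CPM.

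Of 17 other rapidly induced genes, 6 rose, 4 fell and 7 did not pass. Arc rose by 1.75 (adjusted p = 3.57e-05), Sik1, a salt-inducible kinase, by 1.02 (adjusted p = 1.39e-07), Sgk1 by 0.80 (adjusted p = 0.00030) and Gadd45a by 0.64 (adjusted p = 0.0024). Phlda1 fell by 1.42 (adjusted p = 1.31e-05), Ccn2, a matricellular target of serum response factor and YAP, by 1.10 (adjusted p = 3.63e-06), and Rhob, a small GTPase, by 0.75 (adjusted p = 0.00072). Tnfaip3 was lower by 1.25, a value of -0.70 without E12.5 PGC replicate 1, and its call was lost without that library and without E12.5 PGC replicate 2 (-1.21) or d6PGCLC replicates 2, 3 or 4 (-1.25, -1.14 and -1.04). Replicate 2 was the highest E12.5 PGC library in 13 of the 17: Ccn1 had 4.37, 17.3, 5.44 and 7.13 CPM and Plk3 34.7, 65.2, 35.2 and 38.1 CPM in E12.5 PGC replicates 1 to 4. It was not for the other 4, among them Sik1, at 0.912 times the mean of the other E12.5 PGC libraries in replicate 2.

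Of 10 Dusp genes, which encode phosphatases of the MAP kinases, 2 rose, 6 fell and 2 did not pass. Dusp8 fell from 37.2 ± 22.4 to 3.36 ± 1.03 CPM, by 3.49 on the log2 scale (adjusted p = 7.83e-08), Dusp10 by 2.91 (adjusted p = 5.66e-07) and Dusp9 from 455 ± 66.6 to 96.7 ± 46.4 CPM, by 2.24 (adjusted p = 3.77e-08). Dusp4 and Dusp6 rose by 0.71 (adjusted p = 2.85e-06) and 0.47 (adjusted p = 0.0028). Dusp2 was lower by 1.16, and its call was lost without d6PGCLC replicate 2 (-0.98) or E12.5 PGC replicate 2 (-0.89). Among 20 kinases of the ERK, JNK and p38 cascades, 8 rose, 4 fell and 8 did not pass. Mapk13, a p38 kinase, rose from 60.8 ± 5.33 to 237 ± 32.8 CPM (log2 1.96, adjusted p = 1.11e-11), Map2k1 (MEK1) by 1.07 (adjusted p = 1.99e-09), Mapk3 (ERK1) by 0.67 (adjusted p = 2.14e-06) and Rps6ka1 by 0.57 (adjusted p = 1.98e-05). Map2k6 fell by 0.93 (adjusted p = 0.00013), Mapk8 (JNK1), a kinase of Jun, by 0.72 (adjusted p = 1.31e-05) and Rps6ka3 by 0.48 (adjusted p = 0.00053). Map2k7 was lower by 0.34, and its call was lost without E12.5 PGC replicate 3 (-0.33).

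Of 14 genes for serum response factor, its partners and the CREB system, 2 rose, 6 fell and 6 did not pass. Srf itself, which binds the CArG box, had 156 ± 14.5 CPM across d6PGCLCs and 181 ± 6.89 CPM across E12.5 PGCs (log2 -0.22, adjusted p = 0.079). The ternary complex factor Elk3 rose by 1.49 (adjusted p = 0.00059), from a level near 1.27 CPM. The CREB coactivators Crtc1 and Crtc3 fell by 1.04 each (adjusted p = 3.25e-06 and 0.00042), Mrtfb, an actin-sensing coactivator of Srf, fell by 0.70 (adjusted p = 0.00029) and the acetyltransferase Crebbp by 0.61 (adjusted p = 0.0015). Crtc2 was higher by 0.37, and its call was lost without d6PGCLC replicate 3 (0.33) or E12.5 PGC replicates 1 or 3 (0.31 and 0.32). Of 3 regulators of Egr proteins, Fhl2 rose by 2.33 (adjusted p = 1.32e-06), the corepressor Nab1 fell by 0.88 (adjusted p = 0.0057) and Nab2 did not pass.

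Among the relatives of Zfp36, Zfp36l1 fell from 48.6 ± 5.06 to 12.3 ± 5.65 CPM, by 2.00 on the log2 scale (adjusted p = 1.54e-07), with 19.8, 13.4, 7.72 and 8.12 CPM across d6PGCLCs and 55.4, 43.9, 45.8 and 49.5 CPM across E12.5 PGCs. Zfp36l2 was higher by 0.33, a call that was lost without E12.5 PGC replicate 3 (0.29). The ratio of Zfp36 to Zfp36l1 in RPKM was 6.69 to 12.6 in d6PGCLCs and 0.411 to 1.03 in E12.5 PGCs. Of the 18 genes of this list, which also holds Btg and Tob proteins and subunits of the CCR4-NOT deadenylase, 2 rose, 7 fell and 9 did not pass. The subunit Cnot8 rose by 0.58 (adjusted p = 8.89e-05), Tob2 fell by 0.91 (adjusted p = 3.76e-06) and Cnot2 by 0.41 (adjusted p = 0.0015). Btg3 was lower by 1.24, and its call was lost without d6PGCLC replicates 3 (-1.19) or 4 (-1.02) or E12.5 PGC replicates 2 (-1.16) or 4 (-1.01).

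**Figure D5:**
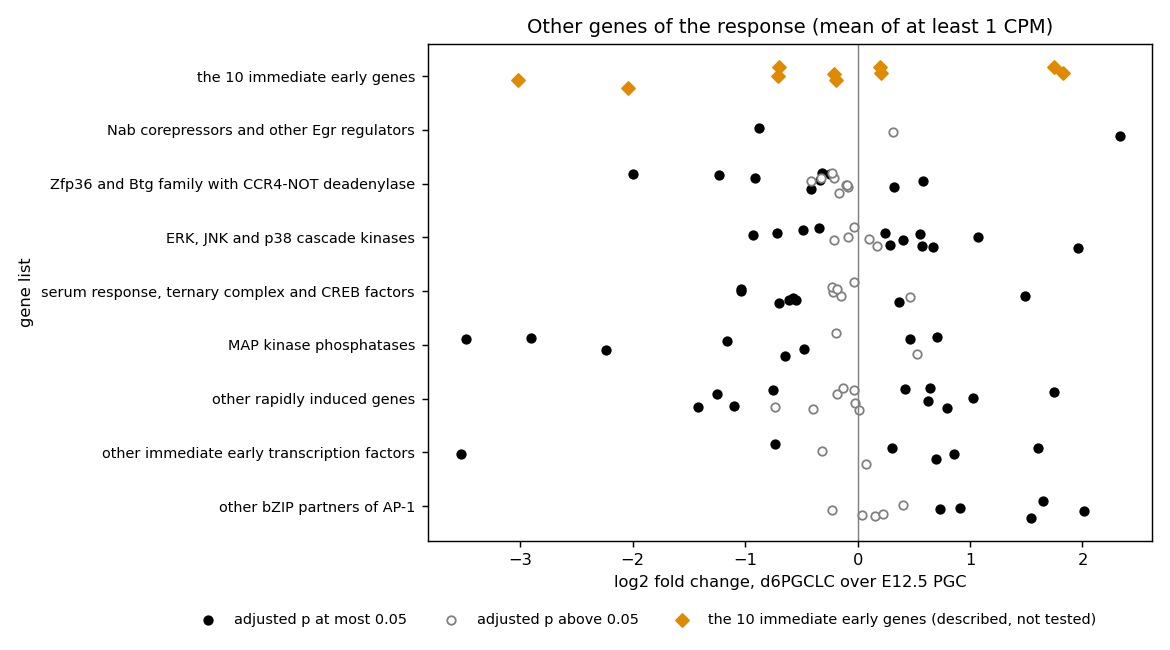
Log2 fold change of d6PGCLC over E12.5 PGC (horizontal axis) for the genes of 8 lists whose mean reached 1 CPM, filled where the adjusted p is at most 0.05, with the 10 immediate early genes as diamonds. Genes of a list lie on both sides of 0, and Egr2 and Dusp8, at -3.53 and -3.49, are the lowest points of the plot.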

How the data were processed

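RNA was sequenced from 4 d6PGCLC and 4 E12.5 PGC pools. Raw counts of uniquely mapped exonic reads per gene were deposited by the authors, with the exonic length of an isoform chosen at random; reads were aligned with STAR to GRCm38 (mm10) with ERCC sequences and counted with QuasR, and the strand setting is not stated. RefSeq gave a symbol for 21907 of 21950 Entrez identifiers.

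Counts were fitted with edgeR 4.0.16 in R 4.3.3 (TMM, quasi-likelihood test, legacy=TRUE, prior count 0.125, all genes, cell type as the only term) with Benjamini-Hochberg adjustment over the table. Standard errors are the square root of the inverse information multiplied by the quasi-likelihood variance, on the log2 scale. CPM used TMM-scaled totals, and RPKM the same per kilobase. With 3 counts as the limit, a library shows 0.249 to 0.375 CPM, for counting error only. Libraries of a group differed by more than sampling noise, at a chi-square of 3.35 to 22.1 per degree of freedom over 12 pairs. The p-values set the difference between the cell types against the spread between pools. The steps were tested on simulated data.

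Members and lists were chosen with earlier results of these data known. Named were the 10 members, up to 4 higher and 4 lower genes per list with the largest fold change among called genes whose mean reached 1 CPM, any list gene a result turns on, and the 5 genes most like the members in log2(CPM + 0.5). Of the lists, Ier3, Errfi1, Mapk14, Map2k2, Foxl2, Hba-a1, Alas2, Dnaja1 and Hspd1 were not in the table. Alternatives were other normalizations, filters, tests (DESeq2 1.42.0 among them), a prior count of 2, a replicate block and leaving out each library. Oocyte libraries of the study were not analysed here. Values of 1 marker gene are left out.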

Additional observations from a re-analysis of the deposited data

Results flagged for a closer look

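In groups of 4 libraries, the highest or lowest value was set against the range of its group for 30 sets of values, and 3 lay far from the others by Dixon's 95% criterion. Chance passes it for about 1 in 20 groups of values not chosen for their spread, and the spread of these genes was known when they were chosen, so it is a description here and no test. All 3 were values of E12.5 PGC replicate 2. Jun was at 156.3 CPM there, against 29.3 to 41.9 CPM in the remaining E12.5 PGC libraries. Egr1 was at 109.9 CPM, against 54.8 to 64.1 CPM. Btg2 was at 77.3 CPM, against 31.7 to 34.6 CPM. The 30 sets share libraries and are not independent.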

How the results depend on the processing

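Of the 10 genes, 8 kept the sign of their fold change in every alternative that gave a value. Fosb ranged from -0.52 to 0.28 with a library left out, positive without E12.5 PGC replicate 2, and Btg2 from -0.0078 to 0.62, negative without d6PGCLC replicate 1. Jun, Junb, Egr1 and Zfp36 passed the threshold in all 17 alternatives and Atf3 in the 16 that gave it a value. Fos passed in 15 (not with DESeq2 and not without E12.5 PGC replicate 2). Ier2 and Btg2 passed in that last alternative alone, which brought the genes called higher to 4 (all genes: 3397 of 21950). Genes of the set called and changed by at least 2 on the log2 scale numbered 2, 1 with filterByExpr, which removed Atf3, 1 with the replicate block, and 0 to 2 with a library left out (0 without E12.5 PGC replicate 2). Over all genes these were 712 higher and 740 lower, 464 and 383 with filterByExpr, and 450 and 382 with a prior count of 2. They were 499 and 435 with CPM above 1 in at least 3 libraries, and 642 and 638 with the replicate block. With a library left out they were 641 to 737 higher and 654 to 732 lower (737 and 674 without E12.5 PGC replicate 2). By counts in place of RPKM, Junb took 16.1% of AP-1 in d6PGCLCs and 3.68% in E12.5 PGCs. Same-numbered libraries correlated in their deviations at 0.30, 0.11, -0.04 and 0.04, and only numbers 1 and 4 correlated best with their own number, so the numbers were not taken to pair the pools; with the replicate block 3708 genes were higher and 3562 lower, against 3532 and 3387. Depth limits Atf3 in d6PGCLCs, at 1 to 6 counts.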
